A study of Homo sapiens with 6 samples.

Results

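Small nucleolar RNAs (snoRNAs) and small Cajal body RNAs (scaRNAs) were examined on 6 expression arrays of the prostate cancer line Du145, of human origin. Its tumour suppressor TSC2 had been knocked down by a lentiviral short hairpin RNA. The members were every gene whose symbol starts with SNORD, SNORA or SCARNA and that has a probe set naming no other gene. They came to 192 of the 18417 genes measured: 115 SNORD genes (C/D box RNAs), 61 SNORA genes (H/ACA box RNAs) and 16 SCARNA genes (Cajal body RNAs). The arrays formed 3 groups of 2: cells the labels call adapted from the TSC2 knockdown (shTSC2-adapted), TSC2 knockdown cells (shTSC2) and control cells. The cells of each group, controls included, spent 24 h under 1% oxygen before harvest. The labels do not say what adaptation involved, what the control cells received, whether the knockdown cells were a clone or a pool, or whether the arrays of a group came from separate cultures, so p-values cover only how far these arrays lie apart, which may be technical.

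C/D box RNAs pair with ribosomal RNA and guide ribose methylation by the enzyme fibrillarin (FBL), whereas H/ACA box RNAs guide the conversion of uridine to pseudouridine by dyskerin (DKC1). Cajal body RNAs do the same for the small nuclear RNAs of the spliceosome, inside nuclear structures organised by coilin (COIL). Most human snoRNAs lie in introns of a host gene and are trimmed out of its spliced introns, and many hosts are ribosomal protein genes or non-coding genes such as GAS5 and the SNHG genes. TSC2 restrains the growth kinase mTORC1, which governs the translation of messages that start with a pyrimidine tract, a class to which ribosomal protein messages and several snoRNA hosts belong.

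Because several results below turn on the host gene, the 100 bases around the annotated start of some non-coding hosts are shown, 50 on each side, 5′ to 3′, from RefSeq on GRCh38.p14. Capitals mark the letters CTTT where they begin within 5 bases of the annotated start on the transcribed strand, the only strand searched. SNHG5, ZFAS1 and SNHG32 hold these letters there, whereas GAS5 and SNHG17 do not.
GAS5 (chr1:173868996-173869095, minus strand): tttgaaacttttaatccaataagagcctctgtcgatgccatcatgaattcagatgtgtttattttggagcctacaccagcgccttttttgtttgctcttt
SNHG32 (chr6:31834866-31834965, plus strand): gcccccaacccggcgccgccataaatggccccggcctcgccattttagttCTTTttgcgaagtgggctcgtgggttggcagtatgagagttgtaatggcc
ZFAS1 (chr20:49278592-49278691, plus strand): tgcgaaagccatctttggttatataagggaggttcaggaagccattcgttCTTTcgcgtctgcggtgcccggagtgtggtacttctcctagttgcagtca
SNHG5 (chr6:85678684-85678783, minus strand): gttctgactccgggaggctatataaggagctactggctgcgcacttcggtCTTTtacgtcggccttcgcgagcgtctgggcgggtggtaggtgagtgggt
SNHG17 (chr20:38435279-38435378, minus strand): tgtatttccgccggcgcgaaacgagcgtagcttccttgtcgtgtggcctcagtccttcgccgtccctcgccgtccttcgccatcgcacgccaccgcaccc
GAS5 holds SNORD44, SNORD74, SNORD75, SNORD77, SNORD78, SNORD79 and SNORD81, SNHG32 holds SNORD52, ZFAS1 holds SNORD12C, SNHG5 holds SNORD50A and SNORD50B, and SNHG17 holds SNORA71A, SNORA71C and SNORA71D. Over the 86 hosts with a start in the RefSeq table, 24 (27.9%) had CTTT at this place, against 1708 of 27305 starts in the whole table (6.26%). The share was 66.7% among ribosomal protein hosts (8 of 12), 46.7% among non-coding hosts (7 of 15) and 15.3% among the other hosts (9 of 59). These matches describe letters and not a tested start site. A missing match does not place a host outside the pyrimidine-tract class, because only CTTT near the annotated start was searched.

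The log2 intensity of TSC2 was 6.54 and 6.48 in shTSC2-adapted cells, 6.67 and 6.55 in shTSC2 cells, and 7.52 and 7.59 in control cells. It was lower in shTSC2 than in control cells (log2 difference -0.95, limma adjusted p = 0.00102) and lower in shTSC2-adapted than in control cells (-1.05, 0.0241), although the second call ended without either shTSC2-adapted array or either control array (adjusted p up to 0.386). Of 5 epithelial markers, the keratins KRT8 and KRT18 read 11.2 to 11.5 on all arrays and did not pass in any comparison. KRT19 (-1.38, limma adjusted p = 0.00664) and the adhesion molecule EPCAM (-1.29, 0.0271) were lower in shTSC2 than in control cells. KRT19 (1.55, 0.00772), EPCAM (1.65, 0.0173) and the cadherin CDH1 (1.54, 0.00756) were higher in shTSC2-adapted than in shTSC2 cells, and the part of these shifts in the results below was not tested. Of the markers of other cell types, the blood cell marker PTPRC read 3.49 to 3.58, near the low end of the scale, and CD3E 4.78 to 5.02. The endothelial marker PECAM1 read 4.83 to 4.95, and the fibroblast markers COL1A2 and COL1A1 read 5.87 to 6.11 and 6.63 to 6.88. Many members were dim: 122 of 192 had a mean log2 intensity below the median over all genes (6.49) and 80 lay below the lower quartile (5.02). With whole-culture RNA, a change in every cell and a change in some of the cells cannot be told apart.

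The 2 arrays within each knockdown group differed for these RNAs, which touches every comparison below. On shTSC2 array 1, 160 of 192 members read higher than on shTSC2 array 2 (83.3%, median difference 0.26), against 52.1% of all genes (median 0.02). On shTSC2-adapted array 1, 145 members read higher than on array 2 (75.5%, median 0.17), against 44.7% of all genes. On control array 1, 76 members read higher than on array 2 (39.6%, median -0.04), against 48.7% of all genes. MicroRNA genes, another class of small RNA genes on the array, had a smaller gap: 107 of 189 were higher on shTSC2 array 1 (56.6%, median 0.04). Of 22 other structural small RNAs, such as spliceosomal RNAs, 15 were higher there (68.2%, median 0.29), so a gap of this size was not limited to the members. On shTSC2-adapted array 1 it was 11 of those 22 (median 0.01). The median residual SD was 0.20 for the members and 0.11 for all genes. Medians of classes, kinds of host and lengths are therefore given by array as well, and the part of this gap in them was not tested.

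**Figure D1:**
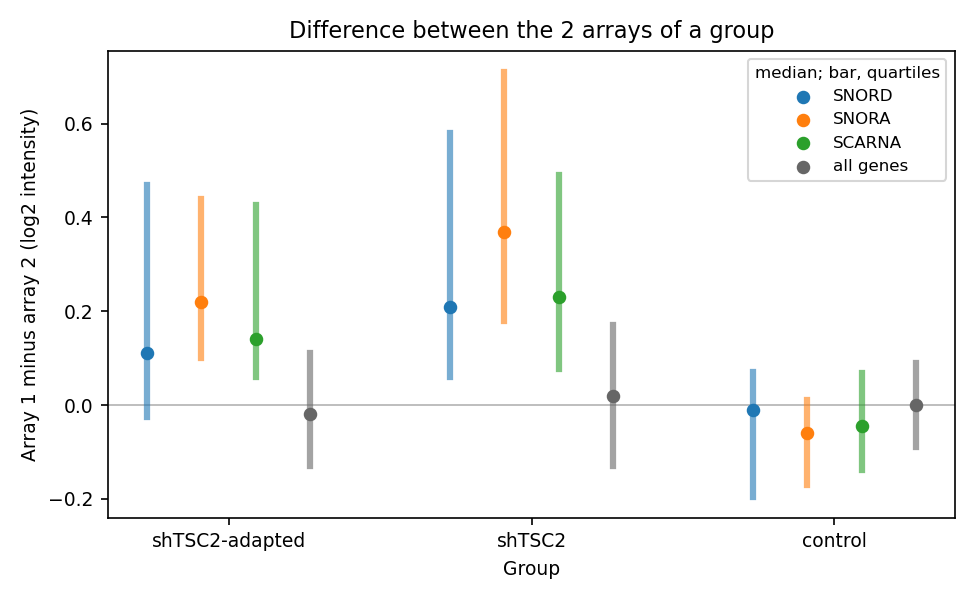
Difference between the 2 arrays of each group (array 1 minus array 2, log2 intensity, y axis) by group (x axis) for SNORD, SNORA and SCARNA genes and for all genes. Points are medians and bars run between the quartiles. In the shTSC2-adapted and shTSC2 groups the 3 RNA classes lie above 0 and all genes lie near 0, and in the control group all medians lie near 0.

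In shTSC2 cells compared with control cells, 20 members were higher and 3 were lower after adjustment over all genes. This is 10.4% of the members higher, against 6.87% of all 18417 genes tested, and 1.56% lower, against 13.9% of all genes. Over all genes the split was 1266 higher and 2567 lower, but 1891 and 2111 after quantile normalization and 1802 and 2257 after centring each array on its median. In 71 of 192 members both shTSC2 arrays lay above both control arrays (32.4% of all genes did), and in 21 both lay below (29.6% of all genes). Genes that passed were called from these same arrays, so a lack of overlap in them, where given below, is no separate check. The median log2 difference over the members was 0.17, against 0.02 over all genes. The Cajal body RNAs had the highest median (0.32), and 6 of 16 were higher. The H/ACA box RNAs followed (median 0.25, 8 of 61 higher, 0 lower), and the C/D box RNAs were spread to both sides (median 0.08, 6 of 115 higher and 3 lower).

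By array, the median of the Cajal body RNAs relative to the control mean was 0.49 on shTSC2 array 1 and 0.31 on array 2. For the H/ACA box RNAs it was 0.44 and 0.05, and for the C/D box RNAs 0.20 and -0.03. The class order was the same on both arrays, but the median of the C/D box RNAs changed sign and that of the H/ACA box RNAs lay close to 0 on array 2. Over all members the median was 0.33 on array 1 and 0.02 on array 2. Without shTSC2 array 1 the count was 14 higher and 9 lower, without shTSC2 array 2 it was 48 higher and 2 lower, and without control array 1 or 2 it was 4 higher and 3 or 2 lower. Without either shTSC2-adapted array it was 21 higher and 10 lower.

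**Figure D2:**
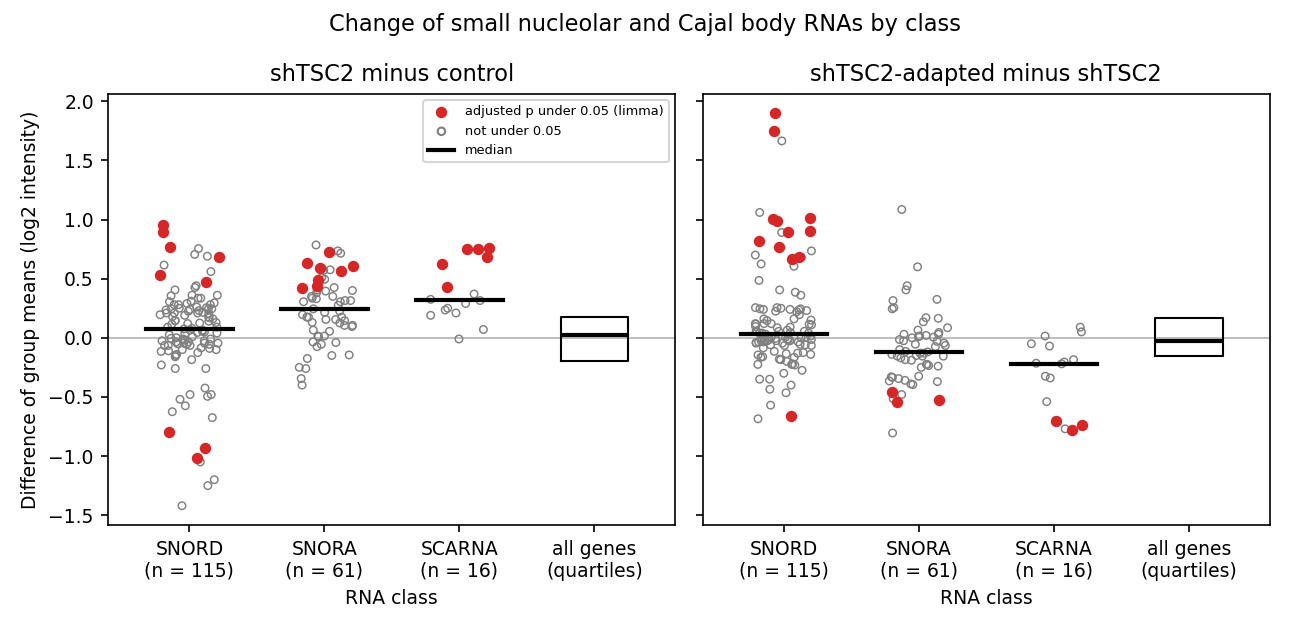
Log2 difference of group means (y axis) for each SNORD, SNORA and SCARNA gene, shTSC2 minus control on the left and shTSC2-adapted minus shTSC2 on the right. Each point is a gene, filled where its limma adjusted p was under 0.05, bars are class medians and the box spans the quartiles of all genes with their median. On the left the SCARNA median (0.32) and the SNORA median (0.25) lie above the SNORD median (0.08), and on the right the order is reversed (-0.22, -0.12 and 0.03).

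Among the Cajal body RNAs, SCARNA9, a guide of spliceosomal RNA modification, had 10.22 and 10.53 on the shTSC2 arrays, against 9.43 and 9.82 on the control arrays (log2 difference 0.75, SE 0.16, limma adjusted p = 0.0157). All shTSC2 values lay above both control values. SCARNA9L, a gene of near-identical sequence within EIF1AX, had 7.46 and 6.90, against 6.32 and 6.54 (0.75, adjusted p = 0.0249), again without overlap. Array probes may not separate this pair, and a second probe set of each gave 0.19 (adjusted p = 0.429) for SCARNA9 and 0.49 (adjusted p = 0.247) for SCARNA9L. SCARNA17, the host of which is the non-coding gene SNHG22, had 10.18 and 10.10 in shTSC2 cells, against 9.56 and 9.47 in control cells (0.63, adjusted p = 0.00803), and its second probe set gave 0.73 (adjusted p = 0.00955). SCARNA17 was thus raised on both of its probe sets, by more than the gap between arrays of a group. The call on its first probe set ended without either control array, with differences of 0.58 to 0.70 over all alternatives.

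SCARNA5, in ATG16L1, had 7.10 and 6.91 in shTSC2 cells, against 6.52 and 5.97 in control cells (0.76, adjusted p = 0.0477). SCARNA11, in CHD4, had 5.97 and 6.03, against 5.43 and 5.20 (0.69, adjusted p = 0.0171), and SCARNA12, in PHB2, had 8.44 and 8.34, against 7.95 and 7.97 (0.43, adjusted p = 0.0159). In each of them the groups did not overlap. SCARNA7, a guide of spliceosomal RNA in KPNA4, read 10.02 and 10.20, against 9.75 and 9.84 (0.32), with an adjusted p of 0.071 that fell to 0.0315 after quantile normalization and to 0.0488 after median centring. SCARNA10, which carries both C/D and H/ACA boxes, showed no difference of that size: 7.74 and 6.96, against 7.36 and 7.36 (-0.01, adjusted p = 0.98), with the shTSC2 arrays on either side of the controls.

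Of the H/ACA box RNAs, the 8 that rose had differences of 0.43 to 0.73 (limma adjusted p 0.00526 to 0.0449). SNORA2B, in KANSL2, had 5.49 and 4.97 in shTSC2 cells, against 4.45 and 4.56 in control cells (0.73, adjusted p = 0.0294). SNORA71C and SNORA71D, related copies in the non-coding gene SNHG17, had 9.62 and 9.44, against 8.95 and 8.84, for SNORA71C (0.64, adjusted p = 0.00794), and 8.24 and 8.26, against 7.70 and 7.59, for SNORA71D (0.61, adjusted p = 0.00526). In all 3 the shTSC2 arrays stood above the control arrays. The others were SNORA14A (0.59) in POR, SNORA51 (0.57) in NOP56, SNORA70G (0.49) in RAP1B, SNORA80A (0.44) in URB1 and SNORA10 (0.43) in RPS2. The 2 probe sets of SNORA10 gave the same difference, so they are no separate check.

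The C/D box RNAs that rose numbered 6. SNORD116-21, 1 of many near-identical copies in the imprinted Prader-Willi region, had 8.78 and 8.71 in shTSC2 cells, against 7.60 and 7.99 in control cells (0.95, SE 0.15, limma adjusted p = 0.00498). SNORD50A, a methylation guide in SNHG5 whose loss has been described in tumours, had 8.52 and 8.20, against 7.23 and 7.70 (0.90, adjusted p = 0.0106). SNORD55, a ribosomal RNA methylation guide, had 7.57 and 7.41, against 6.77 and 6.68 (0.77, SE 0.10, adjusted p = 0.00244). No control array reached a shTSC2 array in any of them. SNORD82, in NCL, had 4.62 and 4.05, against 3.57 and 3.74 (0.68, adjusted p = 0.0367), SNORD57, in NOP56, rose by 0.53 (adjusted p = 0.0373), and SNORD13 had 9.87 and 9.57, against 9.24 and 9.25 (0.48, adjusted p = 0.0372). SNORD13 has its own promoter rather than a host and takes part in the acetylation of small-subunit ribosomal RNA. Its related copies can share probe signal.

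The C/D box RNAs that fell were SNORD77, SNORD49A and SNORD36B. SNORD77, in GAS5, had 3.35 and 3.23 in shTSC2 cells, against 4.36 and 4.25 in control cells (-1.02, SE 0.16, limma adjusted p = 0.00415). Its shTSC2 values lay under the lower quartile of their arrays (4.40 and 4.36), and its control values lay close to that of theirs (4.28 on each), so it was dim in both groups. SNORD49A, in SNHG29, had 4.21 and 4.26, against 5.31 and 5.02 (-0.93, SE 0.13, adjusted p = 0.00257). SNORD36B, in the ribosomal protein gene RPL7A, had 4.87 and 4.26, against 5.27 and 5.45 (-0.80, SE 0.22, adjusted p = 0.0391). All 3 stood below the control arrays without overlap (29.6% of all genes did), and all 3 are dim. Of the 23 calls, 15 held without shTSC2 array 1, 18 without shTSC2 array 2, 6 without control array 1 and 6 without control array 2. SNORD116-21, SNORD55, SNORD49A and SNORD77 held without any single array, with adjusted p of at most 0.0433, 0.0408, 0.0302 and 0.0476.

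The GAS5 cluster had the lowest median of the 11 clusters with at least 3 measured members. Its 7 C/D box RNAs, all guides of ribosomal RNA methylation, had a median difference of -0.58 in shTSC2 compared with control cells, against 0.17 over all members, and 6 of 7 read lower on both shTSC2 arrays than on either control array (29.6% of all genes did). Of these only SNORD77 passed the test. SNORD78 had 9.04 and 7.72 in shTSC2-adapted cells, 6.97 and 5.99 in shTSC2 cells and 7.65 and 7.81 in control cells (shTSC2 minus control -1.25, limma adjusted p = 0.0879). SNORD44 had 9.03 and 7.87 in shTSC2-adapted cells, 7.00 and 6.40 in shTSC2 cells and 7.82 and 7.98 in control cells (-1.20, adjusted p = 0.0506). In both, the shTSC2 arrays were the lowest, and array 1 was above array 2 in both knockdown groups.

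SNORD74 differed by -0.58 (limma adjusted p = 0.0865), SNORD79 by -0.52 (0.0739) and SNORD75 by -0.48 (0.0685) in the same comparison. The exception was SNORD81, with 8.01 and 6.99 in shTSC2-adapted cells, 7.65 and 7.11 in shTSC2 cells and 7.14 and 7.13 in control cells (0.25, adjusted p = 0.637). Relative to the other members outside the SNHG14 and MEG8 clusters, the median of the GAS5 cluster lay at 0.16 and -0.10 on the shTSC2-adapted arrays, at -0.83 and -0.76 on the shTSC2 arrays and at -0.06 and 0.06 on the control arrays. Both shTSC2 values lay below the other 4, and close to each other. The control values mirror each other because each gene was set against the control mean. The cluster is described for its low shTSC2 median, so its place below the controls is no separate check. SNORD44 passed with median centring, the replicate block, only the 4 arrays compared, a spread trend and without dim genes (limma adjusted p 0.0124 to 0.0467). SNORD78 passed with the replicate block, only the 4 arrays compared and without dim genes (0.0377 to 0.0431). Neither passed with quantile normalization or with every probe set tested. Leaving out a shTSC2-adapted array gave the same fit as only the 4 arrays compared, so it is no separate check.

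**Figure D3:**
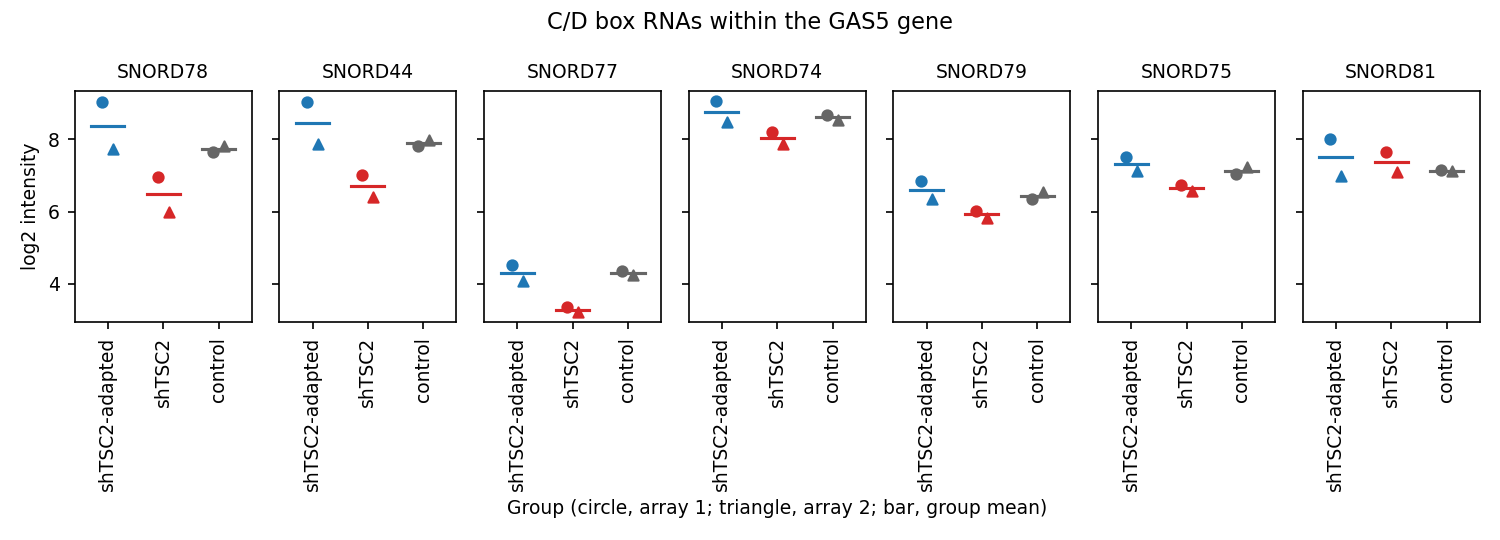
Log2 intensity (y axis) of the 7 C/D box RNAs within GAS5 on each array, by group (x axis: shTSC2-adapted, shTSC2, control). Circles are array 1, triangles array 2 and bars group means. In 6 of 7 panels both shTSC2 values lie below both control values, and SNORD81 is the exception.

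A further pair of members of non-coding hosts, chosen after their values were seen, had falls of like size that did not pass. SNORD52, in SNHG32, had 7.16 and 6.51 in shTSC2-adapted cells, 6.03 and 4.31 in shTSC2 cells and 6.56 and 6.62 in control cells (shTSC2 minus control -1.42, limma adjusted p = 0.0821). SNORD12C, in ZFAS1, had 5.93 and 5.26 in shTSC2-adapted cells, 5.20 and 3.87 in shTSC2 cells and 5.61 and 5.56 in control cells (-1.05, adjusted p = 0.109). The distance between the shTSC2 arrays was over 1 on the log2 scale in both. Without shTSC2 array 1 the difference was -2.28 for SNORD52 (adjusted p = 0.00201) and -1.72 for SNORD12C (0.00534), and without shTSC2 array 2 it was -0.56 (0.163) for SNORD52 and -0.39 (0.344) for SNORD12C.

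The 11 hosts with at least 3 measured members held 79 of the 192. In SNHG17 the 3 H/ACA box RNAs had differences of 0.32 to 0.64 in shTSC2 compared with control cells, SNORA71A lowest (adjusted p = 0.104), and 2 of 3 passed. In NCL, the nucleolin gene, they ran from 0.20 for SNORD20 to 0.79 for SNORA75, and only SNORD82 passed. SNORA75 itself read 6.87 and 5.40 in shTSC2 cells, against 5.33 and 5.37 in control cells, so its rise rested on array 1. In TBRG4 they ran from 0.01 for SNORA5A to 0.34 for SNORA5B (adjusted p = 0.0971), and in RPL3 from 0.13 for SNORD43 to 0.28 for SNORD83A, and in neither did a member pass.

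Members of 1 host did not always move alike. In RABGGTB, SNORD45B differed by -0.68 (limma adjusted p = 0.0538) and SNORD45C by 0.23 (0.233). In RPL23A, SNORD4A differed by -0.63 (0.066) and SNORD4B by 0.17 (0.703). In RPL13A, which holds SNORD34 and SNORD33, the range was -0.50 (0.306) to 0.21 (0.423). The difference between 2 members of a host was not itself tested. Grouped by kind of host, the median was 0.15 for 34 members in ribosomal protein genes (2 higher, 1 lower), 0.05 for 27 in non-coding genes (4 higher, 2 lower) and 0.25 for 83 in other genes (12 higher, 0 lower). Over all genes 6.87% were higher and 13.9% lower. By array, it was 0.43 on shTSC2 array 1 and -0.13 on array 2 for ribosomal protein hosts, 0.34 and -0.31 for non-coding hosts, and 0.42 and 0.05 for the other hosts.

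**Figure D4:**
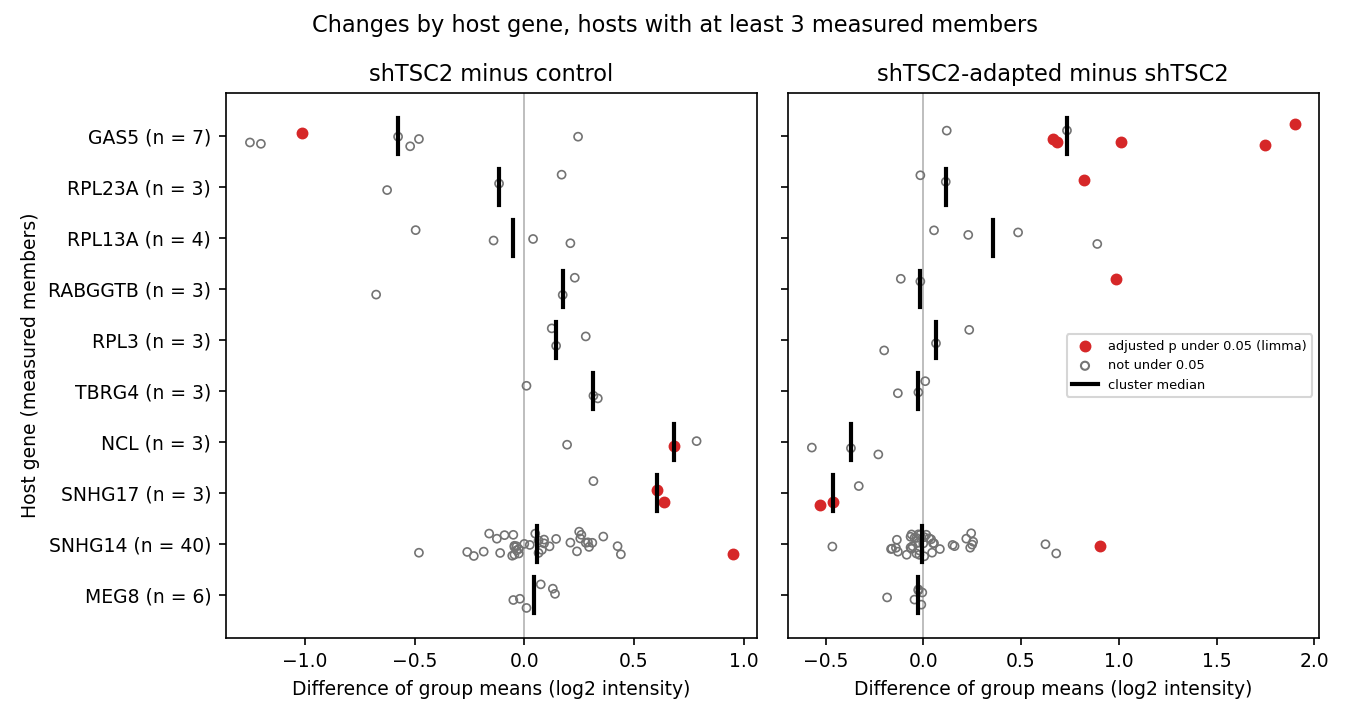
Log2 difference of group means (x axis) for the members of host genes with at least 3 measured members (y axis), shTSC2 minus control on the left and shTSC2-adapted minus shTSC2 on the right. Points are genes, filled where the limma adjusted p was under 0.05, and bars are cluster medians. The GAS5 members lie lowest on the left (median -0.58) and highest on the right (median 0.74), and the SNHG17 members lie high on the left (0.61) and low on the right (-0.46).

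The imprinted clusters were read from their families. The 20 SNORD115 copies, known as brain RNAs, had mean intensities of 2.79 to 3.59, at the floor of the arrays, and 0 of them passed in any comparison. The 2 SNORD113 and 4 SNORD114 genes in MEG8 had means of 3.03 to 3.96 and likewise 0 calls. Among all genes, 20.8% passed in either direction in shTSC2 compared with control cells. For shTSC2-adapted cells this share was 12.5% when compared with shTSC2 cells and 0.261% when compared with control cells. The 20 SNORD116 copies ranged from 3.14 to 10.91 in mean intensity, and their differences between shTSC2 and control cells from -0.48 for SNORD116-28 to 0.95 for SNORD116-21, with a median of 0.23. Only SNORD116-21 passed. Near-identical copies can share probes, so the values of single copies are uncertain.

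Annotated length, which played no part in the choice of members, went with the change. Among the 146 members outside the SNHG14 and MEG8 clusters, the 38 of 60 to 75 nt, all C/D box RNAs, had a median difference of 0.01 between shTSC2 and control cells, with 4 higher and 3 lower. The 23 of 76 to 98 nt had a median of 0.18 and 0 calls. The 65 of 102 to 140 nt, mostly H/ACA box RNAs, had a median of 0.29 with 9 higher, and the 20 of 142 to 421 nt had 0.32 with 6 higher. Over all genes 6.87% were higher and 13.9% lower. By array, the medians ran from 0.16 for the shortest through 0.37 and 0.44 to 0.55 for the longest on shTSC2 array 1, and from -0.20 through -0.12 and 0.06 to 0.26 on array 2. Across these genes, which share arrays and hosts and are not independent replicates, length and difference correlated at Pearson r = 0.37 and Spearman rho = 0.42. Length and class coincide here, and their parts were not separated.

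**Figure D5:**
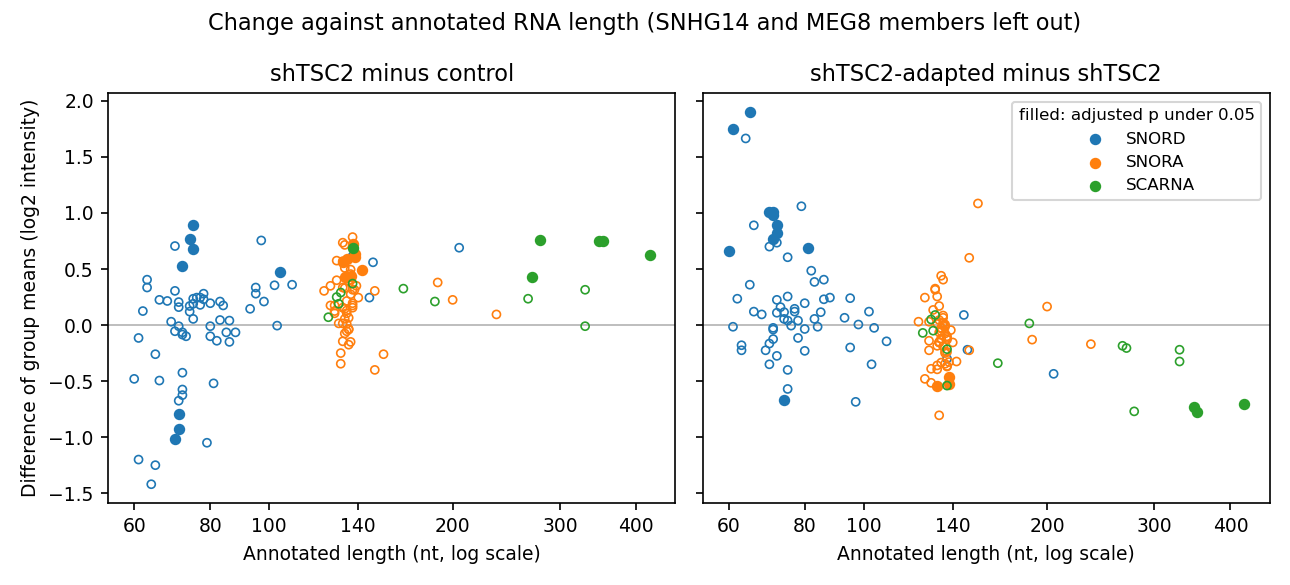
Log2 difference of group means (y axis) against annotated RNA length (nt, log scale, x axis) for 146 members, shTSC2 minus control on the left and shTSC2-adapted minus shTSC2 on the right. Colours are the classes, and filled points had a limma adjusted p under 0.05. All 3 falls on the left and the rises on the right lie among short C/D box RNAs, but members of 60 to 75 nt also hold 4 rises on the left and 1 fall on the right.

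Host messages gave a partial match. For 96 members the host, the gene whose annotated span holds the RNA, had a probe set of its own (74 hosts). Member and host differences correlated across genes at Pearson r = 0.33 and Spearman rho = 0.39 for shTSC2 compared with control cells, with members that share a host counted each time. Over all 96 the member median was itself above 0 (0.245). For 13 members the host was higher (median 0.55): all 13 had differences above 0 (median 0.41) and 5 passed, with members of 1 host counted each time. For 20 members the host was lower (median -0.68): their own median was 0.02, and 10 had differences above 0, with 1 lower and 2 higher after adjustment. Among all genes tested, 6.87% were higher and 13.9% lower. Levels of GAS5, SNHG5, SNHG32 and NOP56 themselves are not analysed here.

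SNHG17 itself rose (8.68 and 8.81 in shTSC2 cells, against 8.15 and 7.82 in control cells, 0.76, limma adjusted p = 0.0166), as did ATG16L1 (0.47, 0.025) and KANSL2 (0.55, 0.0282), the hosts of SCARNA5 and SNORA2B. Each of these calls ended when some single arrays were left out. RPL7A, the host of SNORD36B, was lower (9.97 and 10.62, against 11.05 and 10.99, -0.73, adjusted p = 0.0399), but the call ended under 8 of 13 alternatives, quantile normalization and median centring among them (adjusted p up to 0.195). Other pairs parted. CHD4 fell (-0.66, adjusted p = 0.0175) while its SCARNA11 rose, and both calls ended without either control array. NCAPD2, a condensin subunit, had 8.70 and 8.62 in shTSC2 cells, against 10.56 and 10.53 in control cells (-1.89, adjusted p = 0.00029), and its SCARNA10 differed by -0.01. SNHG29 differed by -0.16 (0.426) where SNORD49A fell by 0.93. The hosts of the near-identical pair SCARNA9 and SCARNA9L, CEP295 (0.27, 0.449) and EIF1AX (0.03, 0.91), and KPNA4 (0.19, 0.493) and NCL (0.08, 0.768) did not pass.

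The proteins that build and trim these RNAs were read from 5 lists with 33 measured genes, of which 5 were higher (15.2%, against 6.87% of all genes) and 7 lower (21.2%, against 13.9% of all genes) in shTSC2 than in control cells. Among the core proteins, FBL had 10.29 and 10.39 in shTSC2 cells, against 10.00 and 9.98 in control cells (0.35, limma adjusted p = 0.0369), and NHP2, an H/ACA core protein, had 8.66 and 8.95, against 8.32 and 8.11 (0.59, 0.035). DKC1, the H/ACA pseudouridine synthase, had 7.78 and 8.27, against 8.72 and 8.49 (-0.58, 0.0499), a call that ended under 11 of 13 alternatives (adjusted p up to 0.28). The FBL call ended under 7 (adjusted p up to 0.214) and the NHP2 call under 3 (up to 0.234). NOP58, NOP10 and GAR1 did not pass.

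NOLC1, a nucleolar and Cajal body chaperone of these particles, had 10.38 and 10.49 in shTSC2 cells, against 9.55 and 9.37 in control cells (0.98, limma adjusted p = 0.00242). COIL, the scaffold of Cajal bodies, had 8.48 and 8.54, against 9.03 and 9.11 (-0.56, 0.00931). XPO1, an export receptor that also takes part in snoRNA transport, had 8.86 and 9.29, against 10.52 and 10.55 (-1.46, 0.00101). The groups did not overlap in any of them, but the COIL call ended without either control array. Of 9 processing and turnover enzymes, 4 were lower (44.4%, against 13.9% of all genes) and 0 higher: the deadenylase PARN (7.55 and 7.61, against 8.42 and 8.37, -0.82, adjusted p = 0.00183), the nuclear exosome nuclease EXOSC10 (-0.45, 0.0344), the cytoplasmic exonuclease XRN1 (-0.74, 0.00787) and the poly(A) polymerase TENT4B (-0.39, 0.0311). With quantile normalization the EXOSC10 and TENT4B calls ended, and with median centring the TENT4B call did (adjusted p of all alternatives up to 0.212 and 0.204). Of 10 genes listed as assembly factors, RPAP3 (0.37, 0.0312), part of the chaperone complex that assembles these particles, and BCCIP (0.42, 0.0243) were higher, calls that ended under 5 and 3 alternatives (adjusted p up to 0.192 and 0.173). Of the 22 other structural small RNAs 2 were higher (9.09%, against 6.87% of all genes), RNU5A-1 (0.69, 0.0104) and RNU4ATAC (0.53, 0.0357), both spliceosomal, with a list median of 0.28. The RNU4ATAC call ended with only the 4 arrays compared, and the RNU5A-1 call without control array 1. MicroRNA genes had a median of 0.12, with 11 of 189 higher (5.82%) and 3 lower (1.59%, against 13.9% of all genes).

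In shTSC2-adapted cells compared with control cells, 0 of the 192 members passed by limma, against 0.261% of all genes (10 higher, 0.0543%, and 38 lower, 0.206%). At an unadjusted p under 0.05 there were 15 members (7.81%), against 12.6% of all genes. The median difference was 0.15 over the members and -0.01 over all genes, but 0.24 on shTSC2-adapted array 1 and 0.00 on array 2. The members with the lowest unadjusted p were SNORD116-23 (5.96 and 6.03 on the shTSC2-adapted arrays, against 5.42 and 5.71 on the control arrays, 0.43, adjusted p = 0.19), SNORD13 (9.60 and 9.79, against 9.24 and 9.25, 0.45, 0.195), SNORD43 (0.36, 0.227), SNORD116-21 (0.49, 0.24) and SNORA14B (0.43, 0.241). Those with the lowest unadjusted p below 0 were SNORD13P1 (2.97 and 2.84, against 3.41 and 3.11, -0.36, 0.291), SNORA70C, SNORD115-35, SNORD115-14 and SNORA22, all at -0.18 or nearer 0 but the first.

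By class, the C/D box RNAs had a median of 0.18 in shTSC2-adapted compared with control cells, the H/ACA box RNAs 0.14 and the Cajal body RNAs 0.03. By array, these were 0.24 on shTSC2-adapted array 1 and 0.03 on array 2 for C/D box, 0.25 and -0.02 for H/ACA box, and 0.16 and -0.03 for Cajal body RNAs, so each rested on array 1. The GAS5 cluster had a median of 0.19, with 0 of 7 passing (0.261% of all genes did). It had no member whose arrays were all on 1 side of the controls, against 21.8% of all genes above and 24.1% below. SCARNA9 (9.66 and 9.53, against 9.43 and 9.82) and SCARNA17 (9.32 and 9.56, against 9.56 and 9.47) overlapped the control arrays. Values of this comparison share the control arrays with the one above, so they are given side by side and not set against each other.

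In shTSC2-adapted cells compared with shTSC2 cells, 11 members were higher and 7 lower by limma. This is 5.73% of the members higher, against 9.25% of all genes, and 3.65% lower, against 3.24% of all genes. Over all genes the split was 1703 higher and 597 lower, but 1345 and 942 after quantile normalization, and the members' split was 11 and 11 after median centring. All 11 that were higher are C/D box RNAs, and the 7 lower were SCARNA9, SCARNA9L, SCARNA17, SNORA51, SNORA71C, SNORA71D and SNORD55. The class medians were 0.03 for C/D box, -0.12 for H/ACA box and -0.22 for Cajal body RNAs. With shTSC2-adapted array 1 alone they were 0.07, -0.04 and -0.20, and with array 2 alone -0.01, -0.24 and -0.35. Without shTSC2 array 1 they were 0.17, 0.06 and -0.16, and without shTSC2 array 2 they were -0.06, -0.30 and -0.38, so only the Cajal body RNAs stayed on 1 side of 0 in all 4. The shTSC2 arrays serve both here and in the comparison with control cells, so values of the 2 comparisons are not independent.

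Of the 11, 5 lie in GAS5: SNORD78 (1.90, SE 0.44, limma adjusted p = 0.0318), SNORD44 (1.75, SE 0.35, 0.0207), SNORD77 (1.01, 0.00777), SNORD79 (0.69, 0.0417) and SNORD75 (0.67, 0.0325). SNORD77 had 4.53 and 4.07 on the shTSC2-adapted arrays, against 3.35 and 3.23 on the shTSC2 arrays. SNORD74 (0.74, adjusted p = 0.0547) and SNORD81 (0.12, 0.851) did not pass. In 6 of 7 both shTSC2-adapted arrays lay above both shTSC2 arrays (25.0% of all genes did), and the cluster median was 0.74, against -0.03 over all genes. The distance between the shTSC2-adapted arrays was over 1 for SNORD78 and SNORD44, and without shTSC2-adapted array 1 their differences were as low as 1.24 and 1.17.

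The other 6 were SNORD36B (5.78 and 5.36 on the shTSC2-adapted arrays, against 4.87 and 4.26 on the shTSC2 arrays, 1.01, limma adjusted p = 0.0253), SNORD45B (7.24 and 6.82, against 6.03 and 6.06, 0.99, 0.0219), SNORD116-28 (0.91, 0.035), SNORD96A in RACK1 (0.90, 0.0293), SNORD4A (0.82, 0.0373) and SNORD49A (5.09 and 4.92, against 4.21 and 4.26, 0.77, 0.00962). Of the hosts, RPL7A (0.38, 0.272), RABGGTB (0.37, 0.152), RPL23A (0.32, 0.0717) and SNHG29 (-0.17, 0.442) did not pass. Among the 7 lower, SCARNA9 differed by -0.78 (adjusted p = 0.022), SCARNA9L by -0.74 (0.0388), SCARNA17 by -0.70 (0.00932) and SNORD55 by -0.67 (6.85 and 6.80, against 7.57 and 7.41, 0.00772). SNORA51 (-0.54, 0.0259), SNORA71C (-0.53, 0.0249) and SNORA71D (-0.46, 0.0244) followed. SNHG17, their host for the last pair, differed by -0.13 (0.686), with 8.82 and 8.42, against 8.68 and 8.81.

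Of these 18 calls, 12 held without shTSC2 array 1, 8 without shTSC2 array 2, 2 without shTSC2-adapted array 1 and 13 without shTSC2-adapted array 2. The 2 that held throughout were SNORD77 and SNORD55 (adjusted p at most 0.034 and 0.0452). Leaving out either control array kept 6. All members counted, 22 were higher and 6 lower without shTSC2 array 1, and 3 were higher and 22 lower without shTSC2 array 2. Without shTSC2-adapted array 1 they were 1 and 2, without shTSC2-adapted array 2 they were 14 and 2, and without either control array 3 and 3. By length, the 38 members of 60 to 75 nt had a median of 0.14 with 9 higher and 1 lower, and the 20 of 142 to 421 nt had -0.22 with 0 higher and 3 lower. Over all genes 9.25% were higher and 3.24% lower. Against the shTSC2 mean, the shortest had medians of 0.32 on shTSC2-adapted array 1 and 0.01 on array 2, and the longest -0.15 and -0.32. Length and difference correlated at Pearson r = -0.44 and Spearman rho = -0.47 across the 146 genes. Among the proteins, 4 of 33 were higher (12.1%, against 9.25% of all genes) and 2 lower (6.06%, against 3.24%): XPO1 (1.36, limma adjusted p = 0.00288), PARN (0.86, 0.00357), TENT4B (0.61, 0.00952) and EXOSC10 (0.59, 0.0198) were higher, and NHP2 (-0.78, 0.0202) and NOLC1 (-0.69, 0.0153) were lower. RNU5A-1 was lower too (-0.64, 0.0226).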

How the data were processed

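Total RNA (100 ng, extracted with Trizol and labelled with biotin) was hybridised to 6 arrays. Per the submitters' processing notes, the deposited intensity values were made with RMA, which corrects background, equalises arrays and summarises probes. For its version, probe definition and build, nothing is stated in the labels. Values were log2 transformed, and arrays have no read depth, so their number limits the precision.

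Probe sets were named from the platform annotation (19460 of 33297 with 1 symbol), keeping the set with the highest mean per gene. A further 76 sets naming several genes include a snoRNA symbol and were left out, so SNORD3A, SNORD118, SNORD14A, SNORD14B, SNORD22, SNORA73A, SNORA73B, SCARNA2 and SCARNA13 are not analysed here. Hosts are genes whose GRCh38.p14 span holds the member. The table gives no strand, so strand was not used, although the plan asked for it. One host with at least 3 measured members is not reported here.

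One limma 3.58.1 model (R 4.3.3, lmFit, contrasts.fit, eBayes) covered all 6 arrays with 3 residual degrees of freedom, two-sided, Benjamini-Hochberg over 18417 genes, threshold 0.05. The script was tested on simulated data. The members and gene lists were chosen with earlier results of these data known. Named genes were TSC2, the largest passing changes (lowest unadjusted p where few passed), well-studied guides, cluster extremes, hosts and listed proteins. The remaining calls, RPL23A, SNORD52 and SNORD12C were added after their values were seen. Replicate numbers did not pair the arrays by the labels or by every correlation of same-numbered deviations, which over all genes (over the members) was 0.21 (0.48) for shTSC2-adapted with shTSC2, -0.10 (-0.02) for shTSC2 with control and -0.19 (-0.10) for shTSC2-adapted with control. Alternatives tried were median centring, quantile normalization, dropping dim genes, every probe set, a replicate block, only the 4 arrays compared, a spread trend and leaving out each array. In any comparison, leaving out an array of the group not compared gave the same fit as only the 4 arrays. Counts of alternatives therefore hold that fit more than once.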

Additional observations from a re-analysis of the deposited data

How the results depend on the processing

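With quantile normalization, median centring, leaving out dim genes, every probe set tested, a replicate block, only the 4 arrays compared or a spread that follows the level, the counts of higher members in shTSC2 compared with control cells stayed within 1.5 times of 20. The count of lower members, 3, became 5 without dim genes, 9 with the replicate block, 10 with only the 4 arrays and 6 with the trend. Leaving out 1 array gave 4 to 48 higher members and 2 to 10 lower, with medians of 0.02 to 0.33, and 228 to 1462 higher and 947 to 2715 lower of all genes. In shTSC2-adapted compared with control cells the members stayed at 0 under every setting, with a median of 0.00 to 0.24 without 1 array. All genes, 10 higher and 38 lower, became 18 and 72 with median centring, 28 and 93 without dim genes, 1 and 0 with the replicate block, 59 and 189 with only the 4 arrays, and 0 to 59 and 0 to 189 without 1 array. In shTSC2-adapted compared with shTSC2 cells, higher members (11) became 5 without dim genes and 3 with only the 4 arrays, and lower members (7) became 11 with median centring and 3 with only the 4 arrays. Lower genes overall became 942 with quantile normalization, and with only the 4 arrays 893 were higher and 220 lower. Leaving out 1 array gave 1 to 22 higher and 2 to 22 lower members, and 690 to 1817 higher and 147 to 893 lower genes. The causes were not tested, although the 4-array fit estimates the spread from fewer arrays.

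Values near 0 changed sign. In shTSC2 compared with control cells SCARNA10 was 0.11 with quantile normalization and 0.05 with median centring. Without 1 array SCARNA10 ranged from -0.40 to 0.38, SNORD33 from -0.055 to 0.48, SNORD4B from -0.15 to 0.49, SNORD81 from -0.025 to 0.52, SNORA5A from -0.035 to 0.055, EIF1AX from -0.06 to 0.11, KPNA4 from -0.045 to 0.43 and NCL from -0.07 to 0.23. In shTSC2-adapted compared with shTSC2 cells CEP295 ranged from -0.31 to 0.24, EIF1AX from -0.14 to 0.09, SNHG17 from -0.325 to 0.075 and SNORD81 from -0.39 to 0.63. No called gene that the text names changed sign, apart from the markers KRT19, EPCAM and CDH1, which were not run through these settings.

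The replicate numbers are not stated to pair the arrays, and same-numbered deviations of the members correlated at 0.48 between shTSC2-adapted and shTSC2 but not with control (-0.02 and -0.10). With the replicate block the counts for shTSC2 compared with control cells were 18 higher and 9 lower members, and for shTSC2-adapted compared with shTSC2 cells 14 higher and 9 lower. In the first comparison SNORD13, SNORA70G, SNORD82, FBL, RPAP3 and DKC1 did not pass with it, whereas SNORD44, SNORD78, SNORD74, SNORD4A, SNORD52 and SNORD12C did (adjusted p 0.0241 to 0.0383). In the second SCARNA9L did not pass, whereas SNORD52 and SNORD74 did (0.0349 and 0.018). TSC2 in shTSC2-adapted compared with control cells did not pass (0.0515). The block changed no other named call among the genes run through it. The markers KRT19, EPCAM and CDH1 were not run through the settings, so the counts that follow leave them out. The number of arrays limits the precision throughout: of 45 named calls in shTSC2 compared with control cells 9 held under every setting that tested them, and of 25 in shTSC2-adapted compared with shTSC2 cells 4 did.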
